A study of Mus musculus with 12 samples.

Results

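Natural killer (NK) cells from tumor-bearing lymph nodes were compared between 2 mouse models of diffuse large B cell lymphoma, a cancer of mature B cells, that differ in the route by which the lymphoma reached the node. The hematogenous group held 4 libraries from the model that spreads through blood vessels, and the lymphatic group held 4 from the model that spreads through lymphatic vessels, out of 12 libraries in all. All libraries carrying either title entered, and every gene above a low count filter was described, which left 16016 genes. The other 4 libraries, of tumor-free C57BL/6J animals, are given beside the models as a reference level. The labels give no strain for the tumor-bearing mice and, for either model, no lymphoma line, injection site, time, age or treatment. Each title ends in a number from 1 to 4, and nothing states that these are separate animals, so a p-value covers only the spread among the samples at hand, part of which may be technical. All 12 samples were nodes made into cell suspensions, from which NK cells were sorted before RNA extraction. The labels do not give the gate of that sort.

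NK cells are innate lymphocytes that kill malignant and infected cells by releasing perforin and granzymes, and that secrete interferon-gamma and chemokines. Their activity is set by the balance of activating receptors, many of which signal through adaptors with ITAM motifs, against inhibitory receptors that read MHC class I. Interferons, cytokines such as IL-12, IL-15 and IL-18, and receptor contact switch them from a quiescent state, in which FOXO transcription factors are active, to an activated state with induced immediate early genes, glycolysis and division. In lymph nodes NK cells sit close to T cells and dendritic cells.

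Gene counts ranged from 10087837 to 19625766 in the hematogenous libraries and from 17672832 to 43494812 in the lymphatic libraries. The defining markers of NK cells were high in every library. Summed over 9 genes (among them Ncr1, Klrb1c, Eomes and Prf1), their level in CPM (gene counts scaled to library size with TMM factors) was 6469 to 7904 in the hematogenous, 9148 to 11212 in the lymphatic and 10400 to 12255 in the tumor-free libraries. Of the 9 genes, Ncr1, Eomes, Nkg7, Prf1 and Gzma were lower in every hematogenous than in every lymphatic library. Tbx21, Klrb1c, Klrk1 (1417 to 1758 against 1478 to 1729 CPM) and Klrd1 (808 to 1147 against 751 to 831 CPM) overlapped. Other measures moved with the groups as well. The share of reads outside annotated features was 17.5% to 24.6% in the hematogenous against 13.9% to 17.4% in the lymphatic libraries. The summed CPM of a list of 17 neutrophil, mast cell and basophil genes was 24.9 to 190.0 in the hematogenous against 3.71 to 6.75 in the lymphatic libraries, and S100a8 and S100a9 were at 0 in hematogenous replicate 1. Summed CPM was lower in every hematogenous than in every lymphatic library for the whole lists of dendritic cells (1143 to 1361 against 1833 to 2379), macrophages and monocytes (1200 to 1252 against 1386 to 1796), ILC2 and ILC3 (997 to 1223 against 1373 to 1524) and plasma cells (245 to 326 against 335 to 376). Of these lists the first holds Itgax (700.2 ± 202 against 1207 ± 177 CPM), the second Ccr2 (590.3 ± 55.0 against 1047 ± 157 CPM) and the third Ncr1 (645 ± 147 against 1041 ± 119 CPM), which NK cells express too. The 5 defining dendritic cell markers summed to 13.4 to 24 against 12.2 to 18.4 CPM, and the 4 defining ILC2 and ILC3 markers to 7.67 to 17.0 against 3.77 to 5.77 CPM. For each of the measures that separated the groups, 11 of 21 compared, 2-sided exact permutation p = 0.0286, the smallest that 4 against 4 allows, and over the 21 the lowest Benjamini-Hochberg adjusted p was 0.0545. Summed B cell markers (6 genes) were 53.1 to 96.6 CPM in the hematogenous and 64.6 to 231 CPM in the lymphatic libraries, and summed T cell markers (6 genes) 422 to 575 against 249 to 442 CPM. Pdgfra, a marker of stroma, was at 0 in all 12 libraries. In sorted bulk RNA, fewer cells of a type and less RNA per cell cannot be told apart. The part that these measures have in the gene results below was not tested.

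**Figure D1:**
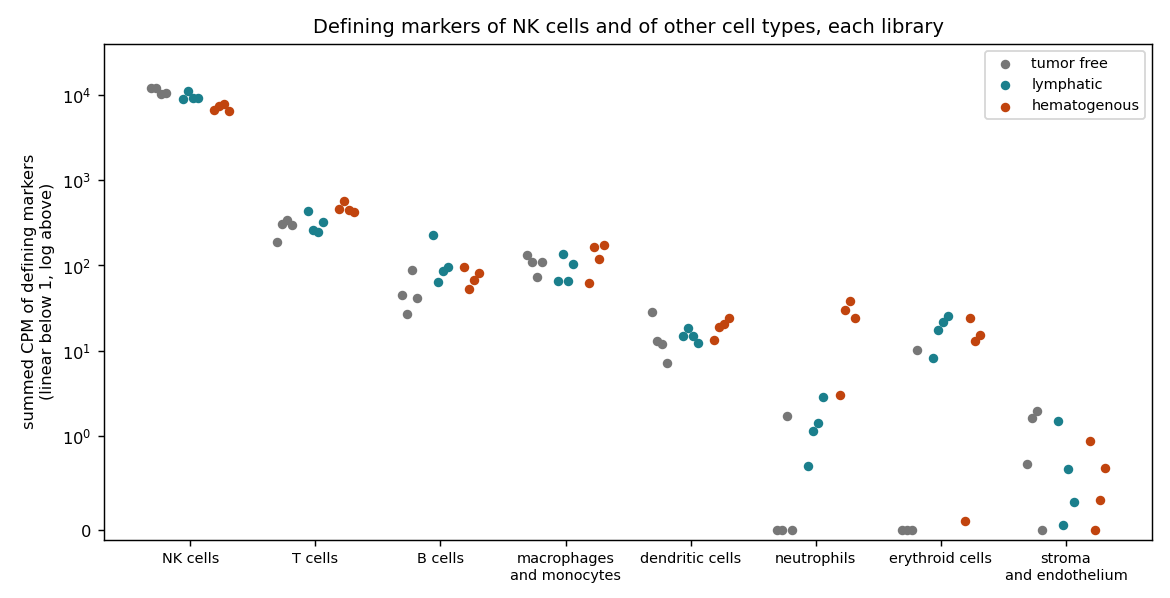
Summed CPM of defining markers in each of the 12 libraries, by cell type and group, on an axis that is linear below 1 and logarithmic above. NK cell markers stood far above those of other cell types in every library, and neutrophil markers were higher in the hematogenous libraries (3.02 to 37.7 CPM) than in the lymphatic libraries (0.685 to 2.82 CPM).

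Between the models 1417 genes were called at an edgeR adjusted p under 0.05, which is 8.85% of the genes tested. Of these, 469 (2.93%) were higher and 948 (5.92%) were lower in the hematogenous libraries. At least 2-fold changes among them came to 128 higher (0.799%) and 218 lower (1.36%). The groups of 4 did not overlap for 1269 of the called genes (7.92% of those tested). The balance of directions depends on the scaling. Higher genes made up 33.1% of calls with TMM factors, 47.4% with DESeq2 size factors, 52.3% with upper quartile scaling and 55.8% with library size alone (744 higher, 4.65%, and 590 lower, 3.68%, of 1334 calls, 8.33%), which moved the median over all genes by 0.11 on the log2 scale. Single libraries weighed on the count. Without lymphatic replicate 2 there were 620 calls (190 higher and 430 lower), without hematogenous replicate 3 also 620 (254 and 366) and without hematogenous replicate 1 there were 811 (371 and 440). Higher calls numbered 283 and 295 without lymphatic replicates 4 and 1. For the lists below, counts that moved by over 1.5 times when a library was left out on its own are given with that library or as a range. The counts of each list stand beside 2.93% higher and 5.92% lower over all tested genes, and some lists are near these shares.

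**Figure D2:**
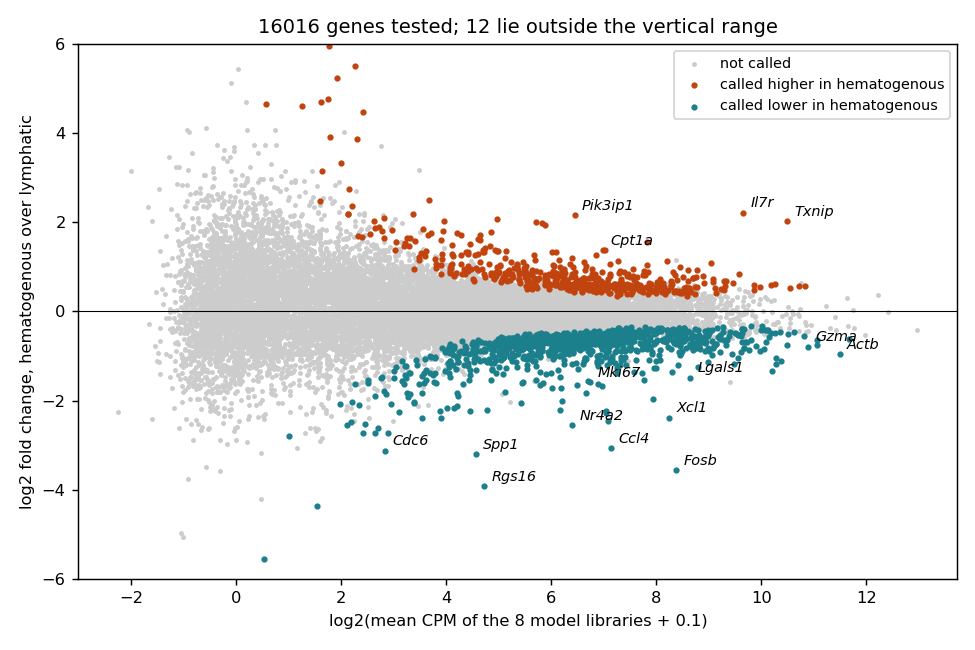
Log2 fold change (hematogenous over lymphatic) of the 16016 tested genes against log2 of their mean CPM in the 8 model libraries plus 0.1, with called genes in color. Il7r and Txnip combine a high level with a log2 fold change above 2, while Ccl4, Rgs16, Fosb and Spp1 lie at −3.07 or below; 12 genes fall outside the vertical range.

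The tumor-free libraries share the estimate of spread in the fit, but their level is no side of the contrast and is given as a reference only. On the log2(CPM + 1) scale, the tumor-free mean lay nearer to the lymphatic mean for 65.0% of all genes tested. It did so for 422 of the 469 genes called higher (90.0%) and for 673 of the 948 called lower (71.0%). For 304 of the lower genes the tumor-free mean was above both models, and for 115 it was below both. Lists differed in this. Among their called lower genes, the tumor-free mean was nearer to the hematogenous one for 37 of 38 type I interferon, 16 of 17 immediate early and 11 of 13 heat shock genes. It was below both models for 30, 10 and 2 of these called genes, in that order. The tumor-free mean was nearer to the lymphatic one for all 23 actin, all 27 respiratory chain and all 7 granule genes. It was above both models for 19, 19 and 5 of them. A mean outside both models is nearer to 1 of them by position alone. Other lists were split, such as the interferon-gamma list with 9 and 7 and the G1 and S list with 7 and 10.

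Calls also followed gene length. The median exon length was 6788 bases for genes called higher and 3310 bases for genes called lower, against 3645 bases over all tested genes. When the tested genes were divided into 4 equal groups by exon length, in the shortest group 0.791% were higher and 5.05% lower, and in the longest group 6.90% were higher and 3.91% lower. The mean log2 deviation of the longest minus the shortest group was 0.161 ± 0.120 (SD, n = 4) in the hematogenous and −0.0662 ± 0.0827 in the lymphatic libraries (exact permutation p = 0.0286). With that trend removed from each library, 1109 genes were called (6.92%), 360 higher (2.25%) and 749 lower (4.68%). The plot of list medians gives each list with the trend removed.

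**Figure D3:**
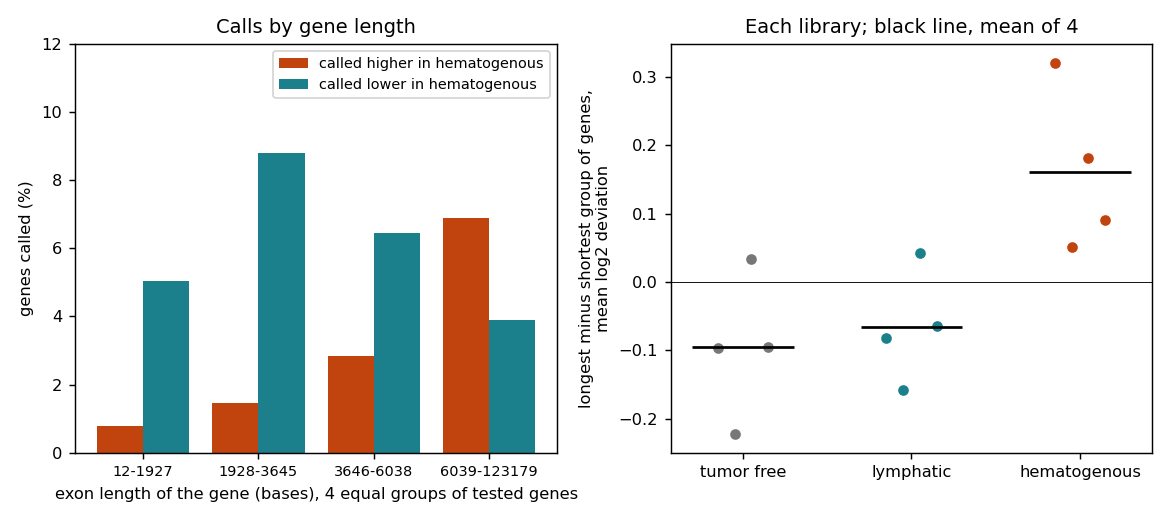
Left, the percentage of genes called in each direction in 4 equal groups of genes by exon length; right, the mean log2 deviation of the longest minus the shortest group in each library, with group means as black lines. The share called higher rises from 0.791% to 6.90% with length, and the hematogenous libraries sit at 0.0518 to 0.321, above the lymphatic libraries at −0.159 to 0.0418.

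Most genes of the type I interferon list were lower in the hematogenous libraries. Of 51 tested list members 38 fell and 0 rose, with a median log2 fold change of −1.14 against −0.01 over all tested genes. Single libraries changed the falls, to 23 (without hematogenous replicate 3). The tumor-free mean was nearer to the hematogenous mean for 37 of the 38, and it was below both models for 30. Phf11b, a PHD finger gene, stood at 21.9, 53.4, 33.4 and 41.5 CPM in hematogenous replicates 1 to 4 and at 91.8, 103, 121 and 106 CPM in lymphatic replicates 1 to 4 (log2 fold change −1.48 with an SE of 0.214, edgeR adjusted p = 0.000487). Every hematogenous library was below every lymphatic one, and the tumor-free libraries (31.4 to 48.6 CPM) lay within the hematogenous range. Parp9, an ADP-ribosyltransferase gene of the interferon response, stood at 71.9, 105, 81.6 and 110.1 CPM against 179.9, 195, 206 and 197 CPM (log2 fold change −1.08 with an SE of 0.146, edgeR adjusted p = 0.000270), and its tumor-free mean of 88.0 ± 14.2 CPM (SD, n = 4) was close to the hematogenous mean of 92.0 ± 18.2. Ifit2, whose product binds viral RNA and blocks its translation, fell from 157 ± 17.3 to 78.4 ± 15.6 CPM (log2 change −1.0, SE 0.147), with 55.6 ± 5.74 CPM in tumor-free nodes. Isg15, a ubiquitin-like modifier, was lower in each hematogenous library (0.567 to 28.8 CPM) than in each lymphatic library (46.9 to 71.5 CPM) but did not pass (log2 fold change −2.03 with an SE of 0.765, edgeR adjusted p = 0.139).

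Interferon-gamma response genes were called lower for 16 of 35 members and higher for 0, with a median of −0.63. With 1 library fewer the falls became 10 (without hematogenous replicate 3), and the rises 1 (without tumor-free replicates 1, 2 or 4 or hematogenous replicate 2). The list had 1 higher and 14 lower with library size alone. Members of the immunoproteasome, which cuts peptides for MHC class I, were among them. Psme1, the alpha subunit of its PA28 activator, fell from 289 ± 49.5 to 161 ± 25.4 CPM (log2 fold change −0.85 with an SE of 0.140, edgeR adjusted p = 0.00145) and the catalytic subunit gene Psmb10 from 136 ± 18.8 to 59.7 ± 24.1 CPM (log2 fold change −1.18 with an SE of 0.212, edgeR adjusted p = 0.00234). Their tumor-free means, 301 ± 34.3 and 149.9 ± 18.9 CPM, were near the lymphatic means. The GTPase genes Igtp and Gbp3, which act on vacuoles of intracellular pathogens, fell to 61.9 ± 19.5 from 134 ± 14.4 CPM (log2 change −1.11, SE 0.196) and to 58.2 ± 12.5 from 111 ± 11.6 CPM (log2 change −0.93, SE 0.168). For Igtp the tumor-free mean was 60.9 ± 12.8 CPM, level with the hematogenous one. Both belong to families of similar sequence, so reads may be split among relatives. Interferon-gamma itself (Ifng) stood at 63.3, 49.1, 46.9 and 80.0 CPM in the hematogenous and 141, 298, 152 and 172 CPM in the lymphatic libraries (log2 fold change −1.67 with an SE of 0.231, edgeR adjusted p = 0.000321), with no overlap.

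Interferon-induced promoters often carry an element bound by IRF and STAT factors. A pair of GAAA with any 2 bases between them was searched on both strands of RefSeq promoter windows (GRCm38.p6, 250 bases before to 50 after a start, so 300 bases each), and 3.99% of 27025 genes held it in 1 or more windows. Among members of the type I interferon list with an entry, 21 of 38 held it (55.3%), and among the interferon-gamma list 14 of 28 (50%). It was present in 63 of 754 genes called lower with an entry (8.36%) and in 15 of 371 called higher (4.04%). The promoters of the 5 called interferon list members with a match and the smallest adjusted p are shown, read 5′ to 3′ on the strand of the gene, with the matched letters in capitals (overlapping matches run together, and capitals beginning with TTTC match on the other strand). This choice was made after the values were seen, and it takes in Eif2ak2, the RNA-activated kinase PKR, which fell from 174 ± 36.1 to 85.3 ± 18.2 CPM (log2 change −1.02, SE 0.179), and Bst2, the antiviral tether tetherin, which fell from 65.6 ± 16.8 to 21.6 ± 10.5 CPM (log2 change −1.60, SE 0.279).
Phf11b promoter, chr14:59341281-59341580, minus strand: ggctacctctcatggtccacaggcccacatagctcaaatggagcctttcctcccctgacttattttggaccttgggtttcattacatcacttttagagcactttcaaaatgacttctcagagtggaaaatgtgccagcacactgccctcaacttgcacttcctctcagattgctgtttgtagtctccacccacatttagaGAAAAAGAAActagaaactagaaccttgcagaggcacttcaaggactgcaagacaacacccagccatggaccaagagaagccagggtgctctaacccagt
Psme1 promoter, chr14:55578244-55578543, plus strand: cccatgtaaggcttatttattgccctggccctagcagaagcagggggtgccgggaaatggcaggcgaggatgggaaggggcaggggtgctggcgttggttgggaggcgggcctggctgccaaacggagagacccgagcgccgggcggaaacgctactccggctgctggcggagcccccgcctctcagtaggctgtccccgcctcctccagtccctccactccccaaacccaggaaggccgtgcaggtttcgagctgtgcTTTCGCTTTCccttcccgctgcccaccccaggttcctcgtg
Bst2 promoter, chr8:71537423-71537722, minus strand: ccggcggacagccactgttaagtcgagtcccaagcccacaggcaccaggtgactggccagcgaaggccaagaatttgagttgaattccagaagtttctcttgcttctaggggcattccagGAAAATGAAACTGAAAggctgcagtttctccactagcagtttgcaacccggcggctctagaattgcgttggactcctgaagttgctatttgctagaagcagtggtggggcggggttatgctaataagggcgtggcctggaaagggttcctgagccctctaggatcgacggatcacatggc
Eif2ak2 promoter, chr17:78882523-78882822, minus strand: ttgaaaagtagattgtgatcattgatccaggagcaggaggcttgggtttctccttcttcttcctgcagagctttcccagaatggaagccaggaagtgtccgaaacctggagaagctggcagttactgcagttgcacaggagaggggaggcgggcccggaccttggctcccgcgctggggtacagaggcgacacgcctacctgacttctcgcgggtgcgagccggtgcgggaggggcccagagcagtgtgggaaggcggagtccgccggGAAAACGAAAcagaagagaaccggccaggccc
Igtp promoter, chr11:58199306-58199605, plus strand: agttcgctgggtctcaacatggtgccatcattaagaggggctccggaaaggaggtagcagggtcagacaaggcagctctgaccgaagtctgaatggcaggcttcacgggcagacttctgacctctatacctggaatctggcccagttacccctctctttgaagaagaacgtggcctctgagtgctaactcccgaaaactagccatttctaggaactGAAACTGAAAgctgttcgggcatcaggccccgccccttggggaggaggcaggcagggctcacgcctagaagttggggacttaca
In Phf11b the match lay 41 to 50 bases before the start and in Igtp 25 to 34 bases before it, while Bst2 held 2 overlapping matches between 115 and 130 bases before the start. The matches of Psme1 and Eif2ak2 lay after the start, at −18 to −9 and −27 to −18 on the same count of bases before it. A match is a description of these letters and shows no binding.

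Immediate early transcription factor genes, switched on within minutes of receptor or stress signals, were called lower for 17 of 23 members and higher for 0 (median −1.35). Their falls became 11 (without lymphatic replicate 2 or hematogenous replicate 3). For 16 of the 17 the tumor-free mean was nearer to the hematogenous mean, and for 10 it was below both models. Nr4a2, an orphan nuclear receptor gene, stood at 15.5, 20.4, 22 and 39.7 CPM in the hematogenous and at 132, 228, 105 and 110.1 CPM in the lymphatic libraries (log2 fold change −2.56 with an SE of 0.321, edgeR adjusted p = 0.000232). The highest lymphatic value was in replicate 2, the groups did not overlap, and all tumor-free libraries (3.98 to 12.4 CPM) lay below the hematogenous ones. Its relative Nr4a1 fell from 228 ± 99.9 to 41.3 ± 29.1 CPM (log2 change −2.47, SE 0.401). Fos, a subunit of AP-1, stood at 65.1, 60.3, 84.8 and 187 CPM against 361, 512, 271 and 418 CPM (log2 fold change −1.98 with an SE of 0.360, edgeR adjusted p = 0.00597), and its tumor-free mean was 7.24 ± 2.99 CPM, so that each model was above the reference. Fosb fell from 615 ± 211 to 52.2 ± 52.3 CPM (log2 fold change −3.56 with an SE of 0.782, edgeR adjusted p = 0.0228) and lost its call under a replicate block and without any 1 of 5 libraries, lymphatic replicates 1 and 2 and hematogenous replicates 1, 2 and 3 (adjusted p up to 0.0872). The zinc finger genes Egr1 and Egr2 had log2 fold changes of −1.58 (SE 0.272) and −2.40 (SE 0.432).

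Genes that dampen such signals were lower in 6 of 25 cases and higher in 1. In this list the falls became 3 (without lymphatic replicate 2 or hematogenous replicates 1, 2 or 3), and the rises 2 (without tumor-free replicates 1, 2 or 4, lymphatic replicate 1 or hematogenous replicate 4). Under a fit with library size alone 2 rose and 4 fell, and with the length trend removed 2 rose and 5 fell. Zfp36, which binds AU-rich cytokine mRNA and speeds its decay, fell from 347 ± 57.2 to 190.1 ± 31.1 CPM (log2 change −0.87, SE 0.136). Dusp5, a nuclear ERK phosphatase, fell from 189.9 ± 56.1 to 86.7 ± 29.5 CPM (log2 change −1.13, SE 0.205), and Ppp1r15a, which reverses eIF2 phosphorylation, fell with a log2 fold change of −1.02 (SE 0.212). The relative Zfp36l2 was the member called higher, at 682, 969, 1036 and 1218 CPM against 479, 562, 451 and 687 CPM (log2 fold change 0.84 with an SE of 0.159, edgeR adjusted p = 0.00304), with overlap between the groups and a tumor-free mean of 334 ± 28.9 CPM. Rgs16, which shortens signalling by G protein-coupled receptors, had the largest fall by the rule for named genes. It stood at 2.27, 4.54, 1.08 and 4.97 CPM in the hematogenous, 29.6, 101, 45.7 and 21.2 CPM in the lymphatic and 0.576 to 8.18 CPM in the tumor-free libraries (log2 fold change −3.93 with an SE of 0.652, edgeR adjusted p = 0.00272).

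Genes of the heat shock chaperone list fell in 13 of 17 cases and rose in 0 (median −0.73). The count of falls changed to 6 (without hematogenous replicate 3) and 8 (without lymphatic replicate 2). Hspa8, the constitutive HSC70 chaperone, stood at 595, 763, 593 and 739 CPM in the hematogenous and at 1423, 2568, 1434 and 1331 CPM in the lymphatic libraries (log2 fold change −1.33 with an SE of 0.174, edgeR adjusted p = 0.000221). Lymphatic replicate 2 was again the highest, and the tumor-free mean of 867 ± 62.4 CPM lay between the groups. Stip1, a co-chaperone that links HSP70 to HSP90, fell with a log2 fold change of −1.16 (SE 0.199), and the HSP90 genes Hsp90aa1 and Hsp90ab1 fell with log2 fold changes of −1.27 (SE 0.229) and −1.11 (SE 0.213). In the unfolded protein response list, many of whose members fold and check proteins in the endoplasmic reticulum, 14 of 25 fell. Without 1 library the falls became 9 (without lymphatic replicate 2 or hematogenous replicate 1), and the rises 1 (without hematogenous replicate 1). The genes called were 1 higher and 12 lower with library size alone. Hspa5, the lumenal chaperone BiP, fell from 994 ± 364 to 437 ± 80.6 CPM (log2 change −1.18, SE 0.192). Calr, which also loads MHC class I, fell from 623 ± 278 to 261 ± 41.9 CPM (log2 change −1.25, SE 0.215). Pdia4 and Sdf2l1 had log2 fold changes of −0.89 (SE 0.162) and −1.53 (SE 0.283). Unlike the heat shock list, of which 11 of 13 lower genes had a tumor-free mean nearer to the hematogenous one, 11 of the 14 had it nearer to the lymphatic one. This difference between the lists was not tested.

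Cell cycle genes fell in part. Of the G1 and S list 17 of 30 fell (median −1.01), and of the G2 and M list 13 of 32 (median −1.40), with 0 and 0 higher. For G1 and S genes, the falls became 10 (without lymphatic replicate 2 or hematogenous replicate 3) and 11 (without hematogenous replicate 1). For G2 and M genes, the falls became 5 to 8 (without lymphatic replicates 1, 2 or 4 or hematogenous replicates 1, 2 or 3), and the rises 1 (without tumor-free replicate 2 or hematogenous replicate 1). Calls numbered 1 higher and 8 lower with library size alone. Mki67, the proliferation marker Ki-67, stood at 47.3, 62.1, 32.0 and 70.5 CPM against 137, 128, 145 and 229.7 CPM (log2 fold change −1.59 with an SE of 0.236, edgeR adjusted p = 0.000601). The groups did not overlap, and the tumor-free libraries (43.5 to 83.0 CPM) were in the range of the hematogenous ones or just above it. Top2a, which untangles DNA, fell from 118 ± 35.9 to 29.4 ± 15.7 CPM (log2 change −2.0, SE 0.304), with 62.0 ± 10.7 CPM in tumor-free nodes. The mitotic kinesin genes Kif11 and Cenpe fell with log2 fold changes of −2.17 (SE 0.406) and −1.39 (SE 0.309). Among replication genes, the helicase subunits Mcm5 and Mcm6 fell with log2 fold changes of −1.30 (SE 0.208) and −0.88 (SE 0.144), the ribonucleotide reductase subunit Rrm1 with −1.10 (SE 0.177), and Uhrf1, which copies DNA methylation, from 36.1 ± 9.56 to 7.63 ± 4.29 CPM (log2 change −2.24, SE 0.372). The largest falls by the rule also held Cdc6 (log2 change −3.13, SE 0.951), the loading factor of that helicase, Mcm10 (log2 change −2.61, SE 0.607), the transcription factor E2f1 (log2 change −2.72, SE 0.592) and the kinetochore genes Nuf2 (log2 change −2.72, SE 0.627) and Kntc1 (log2 change −2.72, SE 0.659). These 5 were at low levels, between 9.06 and 12.7 CPM on average in the lymphatic libraries. Cdc6 lost its call under DESeq2 size factors, upper quartile scaling, library size alone, DESeq2, a fit of the 2 model groups alone and removal of the gene length trend and without any 1 of 10 libraries, tumor-free replicates 1, 3 and 4, lymphatic replicates 1, 2, 3 and 4 and hematogenous replicates 1, 2 and 3 (adjusted p up to 0.162), Mcm10 without lymphatic replicate 2 or hematogenous replicate 3 (adjusted p up to 0.0565) and Kntc1 without hematogenous replicate 3 (adjusted p up to 0.0644).

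**Figure D4:**
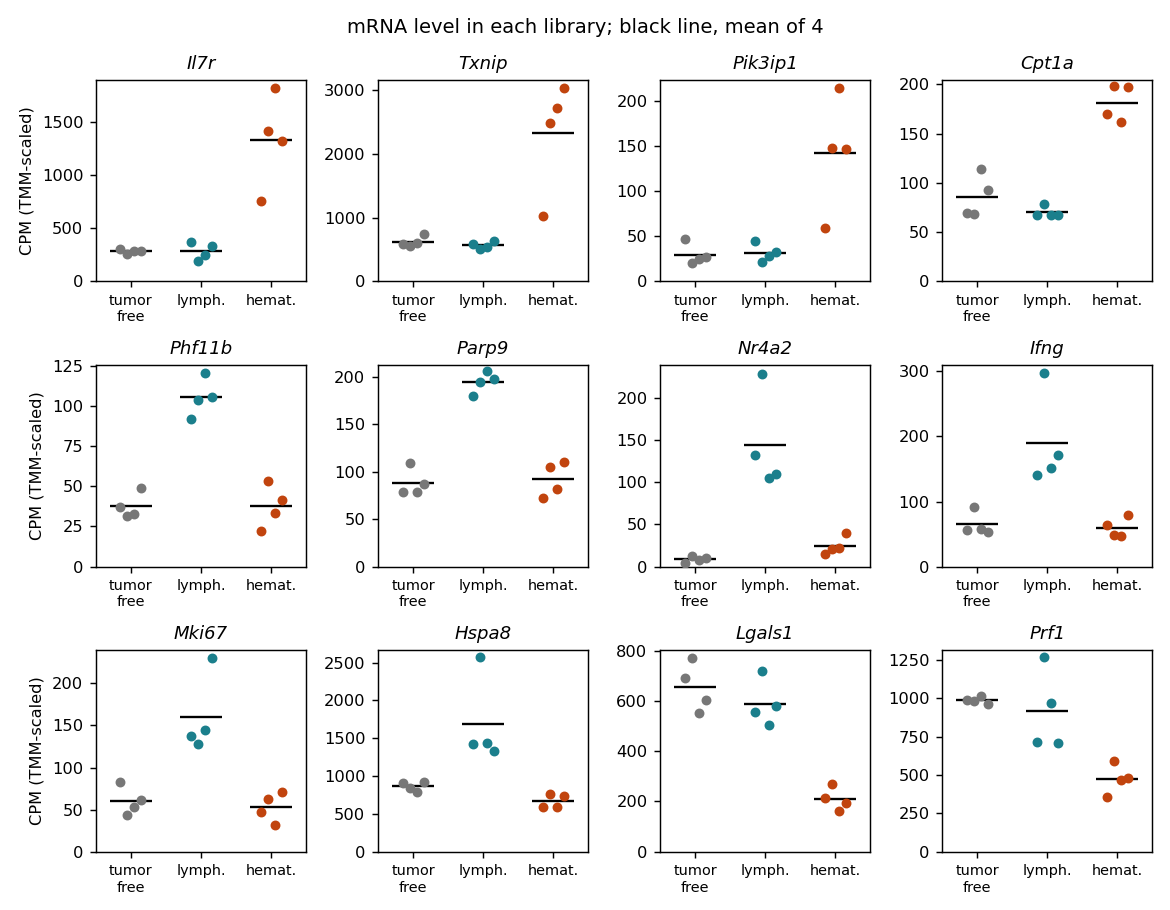
Level in CPM (linear axis from 0) of 12 named genes in each of the 12 libraries, with group means as black lines. Il7r, Txnip, Pik3ip1 and Cpt1a are higher in the hematogenous libraries with tumor-free levels near the lymphatic ones; for Phf11b, Parp9 and Ifng the tumor-free libraries sit with the hematogenous ones, and for Lgals1 and Prf1 with the lymphatic ones.

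In glycolysis 10 of 21 members fell and 1 rose. Single libraries changed the rises, to 0 (without lymphatic replicates 2 or 3 or hematogenous replicate 3). With the length trend removed 0 rose and 10 fell. Ldha, which turns pyruvate into lactate, stood at 152, 251, 175 and 253 CPM in the hematogenous and 450.1, 634, 392 and 428 CPM in the lymphatic libraries (log2 fold change −1.19 with an SE of 0.168, edgeR adjusted p = 0.000376), without overlap. Its tumor-free mean was 350.1 ± 26 CPM. Pgk1 and Aldoa fell with log2 fold changes of −0.98 (SE 0.180) and −0.82 (SE 0.153), and Gapdh, which has many pseudogene copies that can share its reads, with −1.07 (SE 0.188). The Ldha promoter holds 2 copies of the E-box CACGTG, a sequence read by MYC, HIF and clock factors that reads the same on either strand. In the same windows 8.09% of the 27025 genes hold it, and 11.4% of the 10170 tested genes with an entry. The Ldha promoter is shown with the copies in capitals.
Ldha promoter, chr7:46845554-46845853, plus strand: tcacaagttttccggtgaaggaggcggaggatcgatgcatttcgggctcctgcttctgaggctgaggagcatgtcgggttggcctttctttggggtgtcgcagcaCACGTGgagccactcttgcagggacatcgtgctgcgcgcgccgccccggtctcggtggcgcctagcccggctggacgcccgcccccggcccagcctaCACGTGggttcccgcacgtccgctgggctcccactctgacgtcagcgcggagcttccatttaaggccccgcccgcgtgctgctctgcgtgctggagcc
Nuclear genes for respiratory chain subunits fell in 27 of 52 cases (median −0.68) and the median exon length of the list was 1480 bases. With 1 library fewer the falls became 10 (without lymphatic replicate 2 or hematogenous replicate 1), 11 (without hematogenous replicate 3) and 17 (without lymphatic replicate 4). The list had 0 higher and 16 lower with library size alone, and 0 higher and 13 lower with the length trend removed. The tumor-free mean was nearer to the lymphatic mean for all 27 and above both models for 19. The ATP synthase genes Atp5b and Atp5a1 fell from 645 ± 153 to 365 ± 69.0 CPM (log2 change −0.82, SE 0.154) and from 657 ± 81.7 to 415 ± 65.1 CPM (log2 change −0.66, SE 0.126). None of the 13 mitochondrial genome transcripts was called by edgeR or DESeq2 (median −0.48), with 6 lower at an unadjusted p under 0.05 and 4 called lower by voom. Their falls became 4 (without lymphatic replicate 3).

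Cytosolic ribosomal protein genes were called lower in 11 of 53 cases (median −0.49), a count that single libraries changed widely. In this list the falls became 0 to 26 (without tumor-free replicates 1 or 4, lymphatic replicates 1, 2, 3 or 4 or hematogenous replicates 1, 2 or 3). Under a fit with library size alone 0 rose and 7 fell, and with the length trend removed 0 rose and 7 fell. Rpl15, at −0.87 (SE 0.198), lost its call without lymphatic replicate 2 or hematogenous replicate 3 (adjusted p up to 0.0570), and Rps12, at −0.78 (SE 0.187), did so without lymphatic replicate 2 or hematogenous replicate 3 (adjusted p up to 0.0761). Many ribosomal protein genes have pseudogene copies. Of MYC and ribosome biogenesis genes 12 of 32 fell and 0 rose. The count of falls changed to 4 (without lymphatic replicate 2 or hematogenous replicate 3), 5 (without hematogenous replicate 1) and 7 (without hematogenous replicate 2). The genes called were 0 higher and 7 lower with library size alone. Npm1, a nucleolar chaperone of ribosome assembly, fell from 701 ± 199 to 422 ± 62.6 CPM (log2 change −0.73, SE 0.164), the translation factor Eif5a with −0.86 (SE 0.193) and the nucleoside diphosphate kinase Nme1 with −1.05 (SE 0.215). In fatty acid metabolism Cpt1a, the gate for entry of fatty acids into mitochondria, rose. It stood at 169.9, 198, 161 and 197 CPM in the hematogenous and 67.1, 78.7, 67.9 and 67.5 CPM in the lymphatic libraries (log2 fold change 1.37 with an SE of 0.154, edgeR adjusted p = 6.28e-05), and the spread within each group was small beside the gap. The tumor-free mean was 85.9 ± 21.8 CPM. The other called member of that list, Hadha, which acts later in beta-oxidation, fell with a log2 fold change of −0.63 (SE 0.141) and lost its call without hematogenous replicate 3 (adjusted p up to 0.0524). In sterol and fatty acid synthesis 2 of 25 genes fell (8%), near the 5.92% called lower over all tested genes. Without 1 library the falls became 0 to 1 (without tumor-free replicates 1, 2 or 4, lymphatic replicates 2 or 4 or hematogenous replicates 1, 2, 3 or 4). Calls numbered 0 higher and 1 lower with library size alone.

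**Figure D5:**
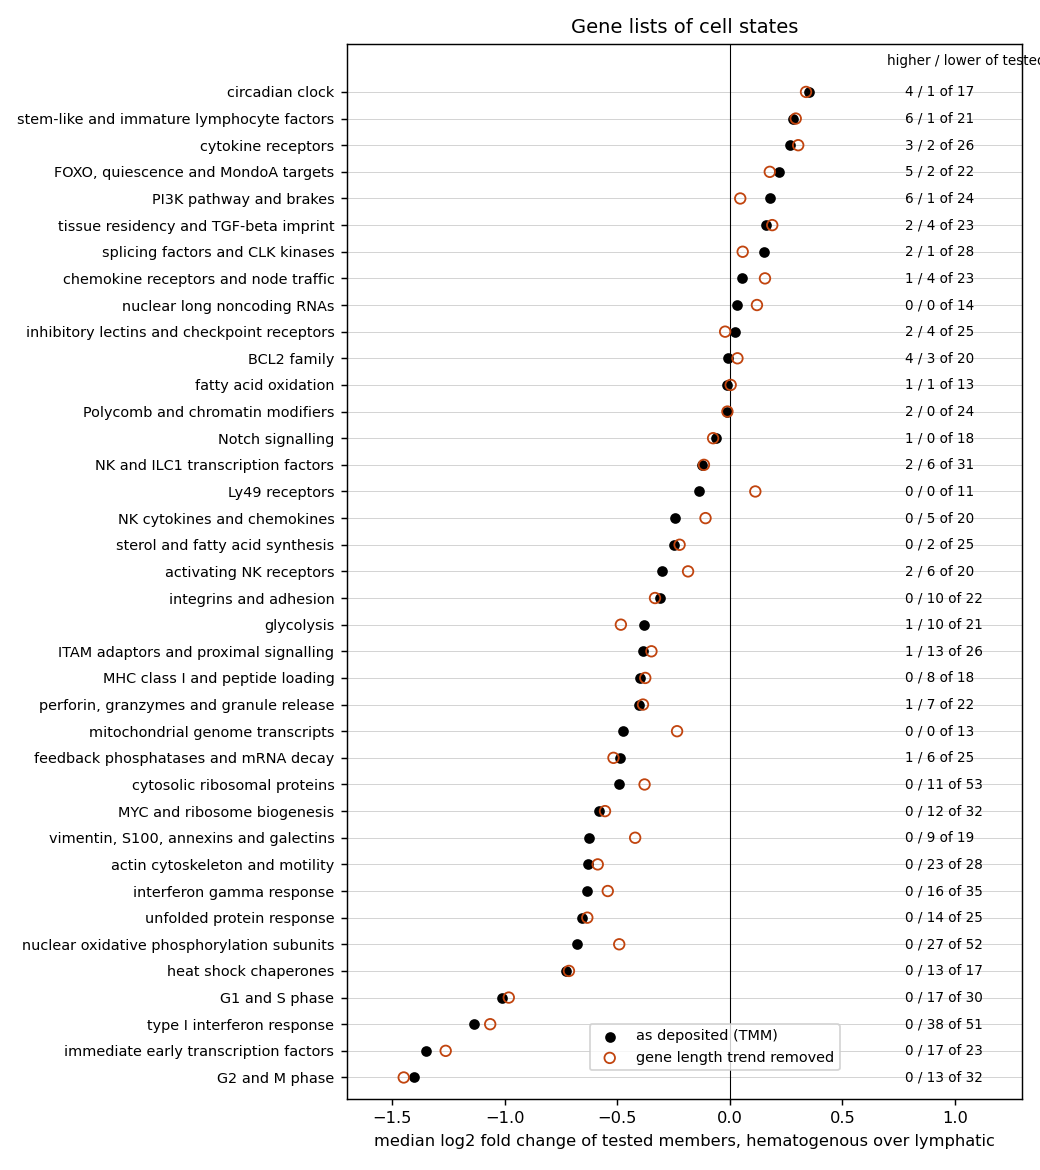
Median log2 fold change (hematogenous over lymphatic) of the tested members of 38 lists of cell states, as computed with TMM scaling (black) and with the gene length trend removed (open circles), with the numbers called higher and lower. Cell cycle, immediate early and type I interferon lists have the lowest medians, and the circadian clock list has the highest, at 0.35.

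The largest rises by the rule for named genes included Il7r, Txnip and Pik3ip1. Il7r, the interleukin-7 receptor alpha chain and a FOXO1 target, stood at 758, 1419, 1819 and 1321 CPM in hematogenous replicates 1 to 4, at 374, 190.3, 249.6 and 333 CPM in the lymphatic and at 303, 257, 289.6 and 284 CPM in the tumor-free libraries (log2 fold change 2.21 with an SE of 0.221, edgeR adjusted p = 4.86e-05). The lowest hematogenous library was above every other library. Txnip, a thioredoxin-binding protein that limits glucose uptake and is induced by the glucose sensor MondoA, stood at 1031, 2479, 2723 and 3032 CPM against 593, 512, 533 and 638 CPM (log2 fold change 2.03 with an SE of 0.226, edgeR adjusted p = 6.28e-05), with a tumor-free mean of 619.9 ± 86.9 CPM. Pik3ip1, a membrane inhibitor of PI3K, stood at 59.6, 148, 214 and 147 CPM against 45.2, 21.7, 27.8 and 32.7 CPM (log2 fold change 2.16 with an SE of 0.343, edgeR adjusted p = 0.00202). For these 3 genes hematogenous replicate 1 was the lowest of its group yet above the lymphatic range.

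Counted as lists, changes went both ways. Of FOXO, quiescence and MondoA targets 5 of 22 rose and 2 fell (median 0.22). Among them the falls changed to 0 to 1 (without tumor-free replicate 1, lymphatic replicates 1, 2 or 4 or hematogenous replicates 1, 2, 3 or 4), and the rises to 3 (without lymphatic replicate 2). With library size alone 8 rose and 0 fell, and with the length trend removed 5 rose and 1 fell. Klf3, a repressor of the KLF family, rose with a log2 fold change of 0.56 (SE 0.140) but lost its call under removal of the gene length trend and without lymphatic replicate 2 (adjusted p up to 0.0825). In the PI3K list 6 of 24 rose and 1 fell. The falls changed to 0 (without hematogenous replicates 1 or 3), and the rises to 3 (without lymphatic replicate 2). Ddit4, an inhibitor of mTORC1, stood at 25.2, 137, 85.4 and 114 CPM against 20.2, 15.1, 27.7 and 29.0 CPM (log2 fold change 1.98 with an SE of 0.403, edgeR adjusted p = 0.00826), and its lowest hematogenous value lay within the lymphatic range. The phosphoinositide phosphatase Inpp4b rose with a log2 fold change of 0.97 (SE 0.229) and lost its call without lymphatic replicate 2 (adjusted p up to 0.0507). Rictor, a subunit of mTORC2, rose with a log2 fold change of 0.61 (SE 0.144) and lost it under removal of the gene length trend (adjusted p up to 0.0514). Cbx7, a chromatin reader of Polycomb complex PRC1, rose from 185 ± 22.7 to 404 ± 43.3 CPM (log2 fold change 1.13 with an SE of 0.124, edgeR adjusted p = 4.86e-05), with 202 ± 18.1 CPM in tumor-free nodes. It was 1 of 2 risen genes among 24 Polycomb and chromatin genes, beside the DNA demethylase Tet2 at 0.74 (SE 0.184), which lost its call under removal of the gene length trend and without lymphatic replicate 2 or hematogenous replicate 1 (adjusted p up to 0.0571). Single libraries changed the rises, to 1 (without lymphatic replicate 2 or hematogenous replicate 1). The list had 4 higher and 0 lower with library size alone, and 1 higher and 0 lower with the length trend removed.

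The circadian clock list had the highest median of the 38 state lists (0.35), with 4 of 17 genes higher and 1 lower. Rora, a nuclear receptor that drives Bmal1 and is needed for group 2 innate lymphoid cells, stood at 64.1, 58.2, 159.8 and 91.0 CPM against 27.6, 20.5, 11.4 and 37.3 CPM (log2 fold change 1.94 with an SE of 0.331, edgeR adjusted p = 0.00206). Per3 rose from 5.93 ± 0.766 to 20.1 ± 5.63 CPM (log2 change 1.76, SE 0.314), Tef, a clock output factor, from 63.0 ± 8.78 to 135 ± 25.5 CPM (log2 change 1.10, SE 0.202), and the repressor Nr1d2 from 56.6 ± 5.49 to 113 ± 17.4 CPM (log2 change 0.99, SE 0.192). Their tumor-free means, 6.29 ± 1.54, 61.9 ± 22.1 and 46.7 ± 15.5 CPM, were near the lymphatic ones. The hour at which nodes were taken is not among the labels. With 1 library fewer the falls became 0 (without tumor-free replicates 1, 2, 3 or 4, lymphatic replicate 2 or hematogenous replicates 1, 2 or 3). Under a fit with library size alone 4 rose and 0 fell, and with the length trend removed 4 rose and 0 fell. Of 16 list members with a RefSeq promoter entry 5 held the E-box CACGTG (31.25%), against 11.4% of the 10170 tested genes with an entry. Other lists held it about as often, such as dendritic cells (5 of 16) and MYC and ribosome biogenesis (7 of 25). Tef is shown as the called member with a match and the smallest adjusted p, by the first of its 2 start windows, each of which holds 1 copy.
Tef promoter, chr15:81802423-81802722, plus strand: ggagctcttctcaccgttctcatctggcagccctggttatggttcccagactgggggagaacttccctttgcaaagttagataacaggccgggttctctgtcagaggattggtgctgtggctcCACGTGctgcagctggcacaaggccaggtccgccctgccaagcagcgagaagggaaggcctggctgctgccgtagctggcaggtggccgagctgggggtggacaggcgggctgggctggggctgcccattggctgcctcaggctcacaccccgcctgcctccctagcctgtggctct

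Receptors that turn NK cells on were lower in 6 and higher in 2 of 20 cases. Their falls became 3 (without hematogenous replicate 3), and the rises 0 to 1 (without tumor-free replicate 3, lymphatic replicates 1, 2, 3 or 4 or hematogenous replicate 3). The genes called were 1 higher and 3 lower with the length trend removed. Ncr1, the NKp46 gene, stood at 863, 552, 604 and 559.6 CPM in the hematogenous and 933, 1188, 1088 and 957 CPM in the lymphatic libraries (log2 fold change −0.69 with an SE of 0.140, edgeR adjusted p = 0.00482). The tumor-free mean of 1372 ± 101 CPM was above both, and the call was lost under removal of the gene length trend (adjusted p up to 0.0974). Klrb1c, which encodes NK1.1, a marker used to recognise NK cells in C57BL/6 mice, was at 856 ± 162 against 842 ± 85.1 CPM (log2 fold change 0.02 with an SE of 0.137, edgeR adjusted p = 0.955). The SLAM family genes Slamf7 and Ly9 fell with log2 fold changes of −1.09 (SE 0.174) and −0.48 (SE 0.109), and Crtam, a receptor for a nectin-like ligand, fell from 166 ± 80.8 to 71.0 ± 5.05 CPM (log2 change −1.23, SE 0.216). Ly9 lost its call without hematogenous replicate 3 (adjusted p up to 0.0621). Inhibitory lectins and checkpoint receptors had 4 falls and 2 rises among 25 genes (16% and 8%, against 5.92% and 2.93% over all tested genes). In this list the falls became 0 to 2 (without tumor-free replicate 4, lymphatic replicates 1, 2, 3 or 4 or hematogenous replicates 1, 2, 3 or 4), and the rises 0 to 4 (without lymphatic replicates 1, 2, 3 or 4 or hematogenous replicates 1 or 3). Calls numbered 3 higher and 2 lower with library size alone, and 2 higher and 2 lower with the length trend removed. The checkpoint receptor genes Pvrig and Lag3 fell with log2 fold changes of −0.77 (SE 0.189) and −1.25 (SE 0.325), while Cish, a brake on IL-15 signalling, rose with a log2 fold change of 1.04 (SE 0.284). Pvrig lost its call under removal of the gene length trend and without hematogenous replicates 1, 3 or 4 (adjusted p up to 0.103), Lag3 without any 1 of 6 libraries, lymphatic replicates 2, 3 and 4 and hematogenous replicates 1, 2 and 3 (adjusted p up to 0.102) and Cish under equal depth and without lymphatic replicates 1 or 4 or hematogenous replicate 3 (adjusted p up to 0.0875). Pdcd1, the PD-1 gene, was at 1.70 to 5.48 CPM in the hematogenous and 0 to 0.283 CPM in the lymphatic libraries and did not pass (edgeR adjusted p = 0.0632). None of 11 Ly49 receptor genes, which are near copies of each other, was called by edgeR or DESeq2 (median −0.14, or 0.11 with the length trend removed), with 3 lower at an unadjusted p under 0.05 and 3 called lower by voom. The count of falls changed to 1 (without hematogenous replicate 1) and 2 (without lymphatic replicate 3).

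Downstream of these receptors, 13 of 26 adaptor and proximal signalling genes fell and 1 rose. Without 1 library the falls became 7 (without hematogenous replicate 3) and 8 (without lymphatic replicate 2 or hematogenous replicate 2). Tyrobp, the ITAM adaptor DAP12, fell from 693 ± 71.2 to 392 ± 50.1 CPM (log2 change −0.82, SE 0.140) and Cd247, the zeta chain, from 191 ± 15.9 to 117 ± 14.7 CPM (log2 change −0.70, SE 0.122). Ptpn6, the phosphatase SHP-1 used by inhibitory receptors, fell from 348 ± 39.3 to 159.6 ± 45.6 CPM (log2 change −1.12, SE 0.170). The 1 rise was Plcg1, a phospholipase C, at 90.1, 93.9, 74.9 and 72.8 CPM against 32.3, 14.3, 18.7 and 17.7 CPM (log2 fold change 2.0 with an SE of 0.299, edgeR adjusted p = 0.000679). Its groups were far apart, and the tumor-free libraries (7.48 to 28.4 CPM) overlapped the lymphatic ones.

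Genes for killing were lower in 7 and higher in 1 of 22 cases. Among them the falls changed to 4 (without lymphatic replicate 2). Prf1, the pore-forming protein perforin, stood at 358, 593, 469.7 and 478 CPM in the hematogenous and 717, 1270.2, 971 and 711 CPM in the lymphatic libraries (log2 fold change −0.95 with an SE of 0.170, edgeR adjusted p = 0.00227). The groups did not overlap, and the tumor-free libraries (963 to 1014 CPM) lay within the lymphatic range. Gzma, granzyme A, fell from 2408 ± 392 to 1392 ± 364 CPM (log2 fold change −0.79 with an SE of 0.174, edgeR adjusted p = 0.00813), with 3198 ± 563 CPM in tumor-free nodes. Gzmb, granzyme B, stood at 133, 502, 274 and 441 CPM against 599, 1846, 961 and 622 CPM, which just missed the threshold (log2 fold change −1.58 with an SE of 0.449, edgeR adjusted p = 0.0515). Nkg7, a granule membrane protein, fell from 1123 ± 154 to 617 ± 81.1 CPM (log2 change −0.86, SE 0.126) and the lysosomal protease Ctsd with −0.56 (SE 0.11). Rab27a, which docks granules at the membrane, was the member that rose (log2 change 0.96, SE 0.202), with values of 120.0 to 349 CPM in the hematogenous and 116 to 135 CPM in the lymphatic libraries, which overlapped.

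Among secreted factors 5 of 20 were lower and 0 higher. The inflammatory chemokine genes Ccl3 and Ccl4 led them. Ccl4 stood at 37.2, 26.6, 20.9 and 35.4 CPM against 141, 544, 192 and 129 CPM (log2 fold change −3.07 with an SE of 0.428, edgeR adjusted p = 0.00180), and Ccl3 fell from 219 ± 93.9 to 45.2 ± 18.6 CPM (log2 fold change −2.28 with an SE of 0.282, edgeR adjusted p = 0.000257). Xcl1, which draws cross-presenting dendritic cells, stood at 85.0, 99.2, 66.3 and 138 CPM against 365, 927, 389 and 357 CPM (log2 fold change −2.39 with an SE of 0.336, edgeR adjusted p = 0.00150), with 283 ± 77.1 CPM in tumor-free nodes. For both Ccl4 and Xcl1 lymphatic replicate 2 was the highest of the 12 libraries, and the groups stayed apart without it. Spp1, the secreted protein osteopontin, fell from 42.5 ± 37.0 to 4.59 ± 3.36 CPM (log2 fold change −3.20 with an SE of 0.833, edgeR adjusted p = 0.0327) and lost its call under no low count filter and a replicate block and without any 1 of 6 libraries, tumor-free replicate 2, lymphatic replicates 2 and 3 and hematogenous replicates 1, 2 and 3 (adjusted p up to 0.163). Cytokine receptors rose in 3 of 26 cases and fell in 2. The falls changed to 0 to 1 (without tumor-free replicates 3 or 4, lymphatic replicates 2, 3 or 4 or hematogenous replicates 1, 2, 3 or 4). With library size alone 4 rose and 0 fell, and with the length trend removed 3 rose and 0 fell. Beside Il7r these were the IL-18 receptor chains, Il18r1 from 927 ± 130.3 to 1391 ± 245 CPM (log2 change 0.59, SE 0.134) and Il18rap from 1358 ± 110.2 to 2005 ± 289 CPM (log2 change 0.56, SE 0.126). Il2rg, the common gamma chain, fell with a log2 fold change of −0.47 (SE 0.119) and lost its call under library size alone and removal of the gene length trend and without lymphatic replicate 2 or hematogenous replicates 3 or 4 (adjusted p up to 0.0986).

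In the actin list 23 of 28 fell and 0 rose (median −0.63, or 21 lower with the length trend removed). Single libraries changed the falls, to 14 (without hematogenous replicate 3). The tumor-free mean was above both models for 19 of the 23. Actb, beta-actin, fell from 3796 ± 863 to 1955 ± 321 CPM (log2 fold change −0.96 with an SE of 0.155, edgeR adjusted p = 0.00118), with 5848 ± 556 CPM in tumor-free nodes. Actg1 fell with a log2 fold change of −1.13 (SE 0.146), the filament-cutting cofilin gene Cfl1 with −0.81 (SE 0.128) and the bundling protein Lcp1 with −0.76 (SE 0.122). Of vimentin, S100, annexin and galectin genes 9 of 19 fell. Lgals1, galectin-1, stood at 213, 269, 162 and 195 CPM in the hematogenous, 555, 719, 505 and 580.3 CPM in the lymphatic and 693, 772, 552 and 604 CPM in the tumor-free libraries (log2 fold change −1.49 with an SE of 0.156, edgeR adjusted p = 4.86e-05). Vim stood at 356, 407, 329.7 and 343 CPM against 673, 762, 715 and 683 CPM (log2 fold change −0.98 with an SE of 0.106, edgeR adjusted p = 4.86e-05), and Anxa2 fell with a log2 fold change of −1.06 (SE 0.134). For Lgals1 and Vim the hematogenous libraries were below all 8 others.

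Chemokine receptor and traffic genes had 4 falls and 1 rise among 23. With 1 library fewer the falls became 2 (without hematogenous replicates 1 or 3), and the rises 0 (without lymphatic replicate 2) and 2 (without lymphatic replicate 4 or hematogenous replicate 1). Ccr2, a receptor for inflammatory chemokines, fell from 1047 ± 157 to 590.3 ± 55.0 CPM (log2 change −0.83, SE 0.125). Selplg, a selectin ligand, fell with a log2 fold change of −0.53 (SE 0.131) and lost its call without hematogenous replicates 1 or 3 (adjusted p up to 0.0904). The rise was Cx3cr1, from 15.9 ± 3.86 to 31.1 ± 1.31 CPM (log2 change 0.97, SE 0.228), which lost its call without lymphatic replicate 2 (adjusted p up to 0.0522). Integrin and adhesion genes were called lower for 10 of 22. Their falls became 3 to 6 (without tumor-free replicates 1 or 4, lymphatic replicates 1 or 2 or hematogenous replicates 1, 2, 3 or 4), and the rises 1 (without tumor-free replicate 2). The list had 1 higher and 3 lower with library size alone. Itgb7, Itgax and Itgal, the last encoding the LFA-1 alpha chain, fell with log2 fold changes of −0.61 (SE 0.112), −0.79 (SE 0.160) and −0.55 (SE 0.114). Of tissue residency and TGF-beta imprint genes 4 of 23 fell and 2 rose. In this list the falls became 2 (without lymphatic replicate 2 or hematogenous replicates 1 or 3), and the rises 0 (without lymphatic replicate 2) and 1 (without lymphatic replicates 1 or 4 or hematogenous replicate 1). Under a fit with library size alone 3 rose and 2 fell. Car2, carbonic anhydrase 2, fell from 239.8 ± 39.3 to 104 ± 16.1 CPM (log2 change −1.20, SE 0.159), and Tgfb1 had a log2 fold change of −0.55 (SE 0.143), with its call lost under library size alone and without lymphatic replicates 2 or 3 or hematogenous replicates 1 or 3 (adjusted p up to 0.118).

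Transcription factors of NK cells and ILC1 were called lower for 6 and higher for 2 of 31. The count of falls changed to 2 (without hematogenous replicate 3) and 3 (without lymphatic replicate 2 or hematogenous replicate 1), and the rises to 1 (without tumor-free replicate 3, lymphatic replicates 2, 3 or 4 or hematogenous replicates 1, 3 or 4). The genes called were 1 higher and 5 lower with the length trend removed. Eomes and Tbx21, the T-box factors of NK maturation, fell from 787 ± 38.2 to 502 ± 90.1 CPM (log2 change −0.65, SE 0.125) and from 269.8 ± 46.8 to 169 ± 34.3 CPM (log2 change −0.68, SE 0.146). For Eomes the groups did not overlap, and the tumor-free mean was 717 ± 60.0 CPM. Stem-like and immature lymphocyte genes (median exon length 6700 bases) rose in 6 of 21 cases and fell in 1. Without 1 library the falls became 0 to 2 (without lymphatic replicates 1, 2 or 4 or hematogenous replicates 1, 2, 3 or 4), and the rises 2 (without lymphatic replicates 2 or 3 or hematogenous replicate 3) and 3 (without lymphatic replicate 4). Calls numbered 7 higher and 0 lower with library size alone, and 2 higher and 2 lower with the length trend removed. Il7r led them. Cd93 rose from 7.34 ± 4.55 to 22.3 ± 6.96 CPM (log2 change 1.60, SE 0.387), and the SLAM receptor Slamf6 rose with a log2 fold change of 0.64 (SE 0.167) but lost its call under removal of the gene length trend and without lymphatic replicates 2 or 3 or hematogenous replicate 3 (adjusted p up to 0.101). Tcf7, the gene of the stem-like factor TCF-1, did not pass, at 648 ± 47.0 against 624 ± 95.1 CPM (log2 fold change 0.05 with an SE of 0.125, edgeR adjusted p = 0.869). Bcl2, which protects lymphocytes from apoptosis and is raised by IL-7 signals, stood at 391, 518, 506 and 489 CPM against 290.0, 321, 280.1 and 295 CPM (log2 fold change 0.68 with an SE of 0.121, edgeR adjusted p = 0.00227), and the tumor-free mean was 424 ± 52.5 CPM. Bak1, a pore-forming killer of the same family, fell from 80.9 ± 8.45 to 42.8 ± 13.4 CPM (log2 change −0.92, SE 0.196). In the whole BCL2 list 4 of 20 rose and 3 fell. Among them the falls changed to 1 (without lymphatic replicate 2 or hematogenous replicates 1 or 3), and the rises to 1 (without tumor-free replicate 3, lymphatic replicates 1, 2, 3 or 4 or hematogenous replicates 2, 3 or 4). With library size alone 5 rose and 1 fell, and with the length trend removed 2 rose and 1 fell.

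MHC class I and peptide loading genes fell in 8 of 18 cases. B2m, the light chain of MHC class I, fell from 2689.6 ± 343 to 1605 ± 318 CPM (log2 change −0.74, SE 0.144), the loading factor Pdia3 with −0.88 (SE 0.165) and the class Ib gene H2-T24, which has close relatives, with −1.31 (SE 0.230). The rises changed to 1 (without hematogenous replicate 2). The list had 1 higher and 7 lower with library size alone. Splicing factor and CLK kinase genes rose in 2 and fell in 1 of 28 cases (7.14% and 3.57%, against 2.93% and 5.92% over all tested genes). Single libraries changed the falls, to 0 to 2 (without lymphatic replicates 1, 2 or 3 or hematogenous replicates 1, 2 or 3), and the rises to 1 to 5 (without tumor-free replicates 1 or 2, lymphatic replicates 1, 2 or 4 or hematogenous replicates 1, 2 or 4). Under a fit with library size alone 7 rose and 0 fell, and with the length trend removed 1 rose and 1 fell. Cirbp, an RNA-binding protein induced by mild cold, rose from 97.4 ± 15.7 to 212 ± 27.5 CPM (log2 fold change 1.12 with an SE of 0.143, edgeR adjusted p = 0.000168), with 149 ± 20.1 CPM in tumor-free nodes. None of 14 nuclear long noncoding RNAs was called by edgeR or DESeq2, with 1 higher at an unadjusted p under 0.05 and 1 called higher by voom. With 1 library fewer the rises became 1 (without lymphatic replicate 3 or hematogenous replicates 2 or 4). The genes called were 1 higher and 0 lower with library size alone. In Notch signalling 1 of 18 genes was called, a rise (5.56%, against 2.93% called higher over all tested genes). It was the coactivator Maml2 at 0.50 (SE 0.152), and that call was lost under a replicate block, equal depth and removal of the gene length trend and without any 1 of 7 libraries, tumor-free replicate 3, lymphatic replicates 1, 2, 3 and 4 and hematogenous replicates 1 and 3 (adjusted p up to 0.171). Their falls became 1 (without tumor-free replicate 1), and the rises 0 to 2 (without tumor-free replicates 2 or 3, lymphatic replicates 1, 2, 3 or 4 or hematogenous replicates 1 or 3). Calls numbered 0 higher and 0 lower with the length trend removed.

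Markers of other cells differed too. In the T cell list 7 of 24 genes were higher and 0 lower (median 0.76). In this list the rises became 3 (without lymphatic replicate 2 or hematogenous replicate 3) and 4 (without lymphatic replicate 4). The constant segments of the gamma T cell receptor, Tcrg-C1, Tcrg-C2 and Tcrg-C4, which are near copies, rose with log2 fold changes of 1.34 (SE 0.302), 1.79 (SE 0.361) and 1.19 (SE 0.294), and Cd6 rose from 8.99 ± 3.71 to 29.4 ± 4.43 CPM (log2 change 1.70, SE 0.378). Tcrg-C4 lost its call without lymphatic replicate 2 or hematogenous replicate 3 (adjusted p up to 0.0729). Cd3e stood at 126, 109, 85.6 and 82.8 CPM against 69.4, 39.9, 48.6 and 53.4 CPM and did not pass (log2 fold change 0.93 with an SE of 0.351, edgeR adjusted p = 0.124). Il7r, Rora and the FOXO targets are also expressed by T cells and other innate lymphoid cells. In the ILC2 and ILC3 list 14 of 20 members passed the low count filter, with a median of 1.07. Of the 14, 3 rose and 2 fell, Ncr1 among the falls. The filter can pass genes through the group where they are high, so this median and these counts are a description only. The summed level of the whole list was lower in the hematogenous libraries, as given above. Its 4 defining markers summed to 7.67 to 17.0 CPM in the hematogenous against 3.77 to 5.77 CPM in the lymphatic libraries. The count of falls changed to 1 (without tumor-free replicates 1, 2, 3 or 4, lymphatic replicates 1, 2, 3 or 4 or hematogenous replicates 1 or 4). With library size alone 3 rose and 1 fell, and with the length trend removed 3 rose and 0 fell. Tmem176a rose from 11.3 ± 1.83 to 32.3 ± 13.1 CPM (log2 change 1.52, SE 0.304). The part of such cells in the rise of Il7r was not tested.

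Neutrophil, mast cell and basophil genes that passed the low count filter numbered 7 of 17, and 4 of them were higher. As the filter can pass genes through the group where they are high, this count is a description only. Without 1 library the rises became 0 to 7 (without tumor-free replicates 1, 2 or 4, lymphatic replicates 1, 2 or 3 or hematogenous replicates 2, 3 or 4). S100a9, a calcium-binding protein abundant in neutrophils, stood at 0, 9.44, 21.3 and 5.99 CPM against 0, 0, 0.118 and 0.717 CPM (log2 fold change 5.50 with an SE of 1.56, edgeR adjusted p = 0.0346), and lost its call under DESeq2 and without any 1 of 5 libraries, lymphatic replicates 1, 2 and 3 and hematogenous replicates 2 and 3 (adjusted p up to 0.166). Csf3r, the receptor of granulocyte colony-stimulating factor, rose from 1.11 ± 0.302 to 7.52 ± 5.00 CPM (log2 change 2.76, SE 0.827) and lost its call under a replicate block and without any 1 of 7 libraries, lymphatic replicates 1, 2, 3 and 4 and hematogenous replicates 2, 3 and 4 (adjusted p up to 0.152). Lyz2, a lysozyme of macrophages and neutrophils, did not pass (32.8 to 124 against 44.7 to 112 CPM, edgeR adjusted p = 0.644). In the B cell list 1 of 31 genes was called, the lambda constant segment Iglc2 at −1.61 (SE 0.484), and that call was lost under DESeq2 size factors, upper quartile scaling, library size alone, no low count filter, a replicate block and removal of the gene length trend and without any 1 of 8 libraries, tumor-free replicate 3, lymphatic replicates 1, 2 and 4 and hematogenous replicates 1, 2, 3 and 4 (adjusted p up to 0.237). Over fits that left out 1 library the falls of the B cell list ranged from 0 to 2. Cd79a, part of the B cell receptor, was at 7.37 to 14.2 against 10.7 to 38.1 CPM (log2 fold change −0.98 with an SE of 0.403, edgeR adjusted p = 0.148).

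The remaining genes with the largest rises by the rule lay outside the lists, except Itga2b. That gene was the 1 called higher of 6 tested in the list of erythroid cells and platelets, where 0 were lower. The rise became 0 with the length trend removed and without any 1 of 8 libraries, those given for Itga2b below. Dmrta1, a DM domain factor, stood at 19.5, 67.7, 66.1 and 48.7 CPM against 11.4, 11.1, 9.66 and 16.2 CPM (log2 fold change 2.06 with an SE of 0.322, edgeR adjusted p = 0.000957). Cyp17a1, a steroid-forming cytochrome P450, rose from 6.08 ± 1.39 to 24.7 ± 12.7 CPM (log2 change 2.02, SE 0.422), and the endocytic receptor gene Lrp1 from 3.69 ± 1.81 to 16.7 ± 9.72 CPM (log2 change 2.18, SE 0.498). The tetraspanin gene Cd63 and the platelet integrin gene Itga2b rose with log2 fold changes of 1.90 (SE 0.590) and 2.11 (SE 0.647), from means of 2.71 and 2.59 CPM. Cd63 lost its call under estimation without robustness and equal depth and without any 1 of 8 libraries, tumor-free replicate 1, lymphatic replicates 1, 3 and 4 and hematogenous replicates 1, 2, 3 and 4 (adjusted p up to 0.143) and Itga2b under estimation without robustness, a replicate block and removal of the gene length trend and without any 1 of 8 libraries, tumor-free replicate 3, lymphatic replicates 1, 2, 3 and 4 and hematogenous replicates 1, 2 and 3 (adjusted p up to 0.172). Macrophages express Lrp1 and Cd63 strongly, and the part of such cells in these rises was not tested. The 5 defining markers of macrophages and monocytes summed to 62.0 to 172 CPM in the hematogenous against 65.1 to 137 CPM in the lymphatic libraries. Of these markers, Adgre1 (4.82 to 7.82 against 0.295 to 2.49 CPM) and Cd14 (0.634 to 2.08 against 0.219 to 0.449 CPM) were higher in every hematogenous library. Lyz2, Cd68 and Csf1r overlapped between the groups. The whole list, which holds Ccr2, was lower in every hematogenous library (1200 to 1252 against 1386 to 1796 CPM). In that list 1 of 23 genes was called higher and 2 lower (4.35% and 8.70%, against 2.93% and 5.92% over all tested genes). Over fits that left out 1 library the rises ranged from 0 to 2 and the falls from 1 to 2. They were 0 and 1 without lymphatic replicate 2. In the dendritic cell list 0 of 14 were called higher and 3 lower.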

How the data were processed

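RNA of NK cells sorted from mouse lymph nodes was sequenced in 12 libraries, 4 each from the hematogenous model, the lymphatic model and tumor-free mice, and grouped by their titles. The authors deposited 1 raw count for each gene and library. The tools listed in the submitters' processing notes are HTSeq 2.0.2, HISAT2 2.1.0, Trimmomatic 0.39 and FastQC 0.11.9, with the build GRCm39. Per the labels' protocols, libraries were made from poly(A) RNA and read as stranded single-end reads of 120 bp. Which annotation and strand setting HTSeq ran with was not given in the sources used here, so overlapping and antisense genes may share reads. Each file ends with 5 summary lines, which entered neither library sizes nor tests; they hold the reads outside features that the report gives. Symbols and exon lengths came from GENCODE M21, of an older build, and matched 52073 of 56748 IDs (91.8%). Promoters came from RefSeq on GRCm38.p6 and serve as sequences only.

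Genes were tested with edgeR 4.0.16 in R 4.3.3 by the robust quasi-likelihood F test, with TMM scaling and the default filter by group. One model with a term for each group took in all 12 libraries (9 residual degrees of freedom, 16016 genes, biological coefficient of variation 0.429), and the contrast was hematogenous minus lymphatic. A Benjamini-Hochberg adjusted p under 0.05 over all tested genes was a call. The standard error (SE) is the absolute log2 fold change over the square root of F, and values are mean ± SD of 4 libraries. Library measures were compared by exact permutation. Depth ran from 6654215 to 43494812 counts, and reads carry no molecular identifiers. Tested on simulated counts of 16016 genes for this contrast, 52% of 2-fold and 74% of 4-fold changes were recovered, with 4 false among 130 calls. These counts held fewer changed genes than the calls reported here, all above a minimum level, and no gene length trend or outlying library. The share of false calls in the real data was therefore not measured.

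The 48 lists (38 of cell states, 10 of cell types) and the rule for named genes were chosen with earlier results of these data known. Named were the 10 largest rises and 10 largest falls among called genes with a mean of at least 5 CPM and groups that did not overlap, up to 4 called genes per list by smallest adjusted p, and a set of 16 fixed genes. Some genes that this rule names are not reported here. Gene models without a proper symbol, receptor segments, pseudogenes and sex-linked genes were left out of the largest changes. Each list is described by its counts and median, with no test of its own. Alternatives were other scalings, filters and tools (DESeq2 1.42.0, voom of limma 3.58.1), a replicate block, equal depth, removal of the length trend, stricter thresholds and leaving out each library.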

Additional observations from a re-analysis of the deposited data

Results flagged for a closer look

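Single libraries stood apart from the other 3 of their group by Dixon's test in 34 of 320 groups of 4 examined, where chance flags about 1 in 20. The 320 come from the same libraries, so they are not independent, and the excess over 1 in 20 was not tested. Lymphatic replicate 2 was the library in 17 of the 34. It was the highest of its group for the chaperone genes Hspa8 (2568 CPM, others 1331 to 1434), Hspa5 (1540 CPM, others 806 to 816) and Pdia3 (677 CPM). It was also highest for the secreted factor genes Ccl4 (544 CPM) and Xcl1 (927 CPM), the nuclear receptor gene Nr4a1 (378 CPM), the phosphatase gene Dusp5 (273 CPM) and Gzma (2990.4 CPM). The same held for Actg1 (891 CPM), Atp5b (873 CPM), Eif5a (811 CPM), Nme1 (93.7 CPM), Cdc6 (17.7 CPM), E2f1 (13.4 CPM), Cd63 (6.86 CPM) and Cpt1a (78.7 CPM). The summed CPM of the 12 genes in the NK defining list was 17515 there, against 14739 to 15133 in the other lymphatic libraries.

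Other lymphatic libraries stood apart less often. Replicate 1 was low for Bak1 (68.3 CPM) and had 12.0% of gene counts in its 50 highest genes. Replicate 3 was high for Eif2ak2 (227 CPM) and Itgax (1469 CPM), had 8.99% unaligned reads and had the lowest summed CPM of the 17 neutrophil, mast cell and basophil genes (3.71). Replicate 4 was high for the division genes Mki67 (230 CPM, others 128 to 145) and Kif11 (38.5 CPM), and at low levels for S100a8 (0.759 CPM) and S100a9 (0.717 CPM).

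In the hematogenous group, replicate 1 was high for Ncr1 (863 CPM, others 552 to 604) and Ccl3 (72.7 CPM), low for Egr1 (10.3 CPM), and had 3.85% of reads with several alignments. Replicate 3 was high for Rictor (339 CPM) and low for H2-T24 (26.6 CPM). Replicate 4 was high for E2f1 (3.87 CPM).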

How the results depend on the processing

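No named gene that was called, in the main fit or in a setting, changed direction under any of the 25 settings. The direction of genes that were not called, or not named, was not compared. Of 1417 calls (469 higher and 948 lower), library size alone gave 744 higher and 590 lower, upper quartile scaling 619 lower, no filter on low counts 710 higher, DESeq2 980 higher, the fit of the 2 model groups alone 867 higher, and voom with quality weights 2913 calls (1266 higher and 1647 lower). An adjusted p under 0.01 left 477 (138 and 339), and a fold of at least 2 left 346 (128 and 218), both by construction fewer. Leaving out 1 library gave 620 to 1572 calls, with 190 to 702 higher and 366 to 933 lower. The cause of these shifts was not tested, beyond the smaller number of samples. With the replicate number as a block 1439 genes were called. Same-numbered hematogenous and lymphatic libraries deviated together with correlations of −0.000965, 0.0570, −0.0727 and 0.0249. Hematogenous replicate 3 and lymphatic replicate 1 had 0.106. The labels do not say that the numbers pair samples, and these values cannot decide it, as a small shared effect could leave them near 0. Of 155 named genes that were called, 106 kept their call in all 25 settings and 49 lost it in 1 or more, 40 of them without hematogenous replicate 3, 35 without lymphatic replicate 2 and 15 with the length trend removed. Depth in this contrast is lowest in hematogenous replicate 1, and thinning all libraries to the lowest depth left 1377 calls.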
